A study of Mus musculus with 18 samples.

Results

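Delta cells that had received interferon gamma (IFNγ) were compared with alpha cells that had received the same treatment. The comparison rests on 6 of the 18 libraries of the series, the 3 IFNγ-treated delta and the 3 IFNγ-treated alpha libraries, chosen by their labels. Islets came from C57BL/6 mice (12-week-old males according to the methods), wild type and without a transgene, and were cultured whole for 20 h with IFNγ at 5 ng/mL. The control islets were cultured without the cytokine. After dissociation, cells were sorted by flow cytometry, gated for the epithelial marker Epcam and against CD45, TER119 and CD31. Delta cells were taken as CD24-high, and alpha cells as CD24-low and CD71-negative. IFNγ-treated and control beta cells (CD24-low, CD71-positive), with 3 libraries each like every other group, entered the statistical fit and served to define IFNγ-induced genes. Each library is stated to be an independent biological sample, and no source used here says whether a library pooled several mice. Of 55487 gene identifiers in the files, 17338 passed a low-count filter and were tested.

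Alpha and delta cells are the glucagon-producing and somatostatin-producing endocrine cells of the islet, and both act on the neighbouring beta cells, somatostatin as a paracrine brake on insulin and glucagon release. IFNγ binds its receptor, a pair of IFNGR1 and IFNGR2 chains, and activates the kinases JAK1 and JAK2. The signal reaches promoters with GAS elements, and a second wave of transcription follows through IRF1 and other interferon regulatory factors, which bind GAAA repeats. CIITA, induced in the same way, assembles on the X and Y boxes of MHC class II promoters. The induced genes encode antigen presentation proteins, immunity-related GTPases, antiviral effectors, chemokines and the checkpoint ligand PD-L1, and they are of interest because islet cells that present antigen are exposed to T cells in type 1 diabetes.

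The promoter windows of 6 genes on which the comparison turns are shown first, with matches to known motifs in capitals. They are RefSeq sequences of GRCm38.p6 on the gene's own strand, and positions are counted from the RefSeq start of transcription. The printed windows of Sst and B2m end short of that start. The window of the somatostatin gene Sst, chr16:23890873-23890902 on the minus strand, holds the cAMP response element TGACGTCA, whose first base is at -48. It is shown as the promoter of the delta cell hormone, and it lies within the longer GENCODE span of Sst given further on.
Sst: cctccttggcTGACGTCAgagagagagttt
The windows of the class II genes H2-Aa, chr17:34287824-34287923 on the minus strand, and H2-Eb1, chr17:34305767-34305866 on the plus strand, hold the Y box letters CTGATTGG at -51 and -62. The letters TGACGTCA also stand in the H2-Aa window, at -74. Both genes were higher in IFNγ-treated delta cells, as given further on.
H2-Aa: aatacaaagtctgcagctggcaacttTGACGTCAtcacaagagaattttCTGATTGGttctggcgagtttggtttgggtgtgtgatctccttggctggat
H2-Eb1: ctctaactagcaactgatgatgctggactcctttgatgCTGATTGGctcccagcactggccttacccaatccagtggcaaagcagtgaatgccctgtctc
Irf1, chr11:53769904-53770013 on the plus strand, holds a GAS element (TTCNNNGAA) at -90, and B2m, chr2:122147526-122147685 on the plus strand, holds GAAA, 2 bases of any kind and GAAA, the core of an interferon-stimulated response element, at -139. Neither gene passed the test between the treated cell types.
Irf1: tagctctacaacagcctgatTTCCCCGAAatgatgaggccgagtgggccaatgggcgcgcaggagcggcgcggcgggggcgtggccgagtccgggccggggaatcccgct
B2m: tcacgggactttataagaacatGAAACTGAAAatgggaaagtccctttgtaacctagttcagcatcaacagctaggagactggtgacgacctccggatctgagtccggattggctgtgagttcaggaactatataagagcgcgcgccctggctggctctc
Cxcl10, chr5:92348890-92349119 on the minus strand, holds the same core at -213 and was lower in IFNγ-treated delta cells.
Cxcl10: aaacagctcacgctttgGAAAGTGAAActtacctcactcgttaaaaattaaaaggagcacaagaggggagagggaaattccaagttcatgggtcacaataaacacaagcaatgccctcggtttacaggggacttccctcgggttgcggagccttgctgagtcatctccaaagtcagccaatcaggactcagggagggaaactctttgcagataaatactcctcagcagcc

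The IFNγ-treated delta libraries held 6297180, 6128845 and 11531734 expected counts, and the IFNγ-treated alpha libraries 10929016, 10683076 and 10894966. Levels are in CPM, each gene's count relative to the size of its library after scaling by the trimmed mean of M-values, and per-library values follow the replicate numbers. CD24 set the gate, so its gene Cd24a is not treated as a result. Among the 6 treated libraries, the second alpha library stood apart in its balance between GC-rich and GC-poor genes (-0.56 log2, against 0.43 to 1.01 in the others). That library also had the highest share of rRNA genes of the 6, 21.8%. The control alpha libraries lay near it in GC balance, at -0.48, -0.72 and -0.77, and the control delta libraries at -0.11, -0.06 and 0.87. GC balance thus also differed between the control and most treated alpha libraries, and its part in the alpha response to IFNγ was not tested. Only the first delta and the first alpha library carry the same date in their file names. A fit with this date as a term therefore compares the treated cell types through that single pair, with 4 residual degrees of freedom against 12 without it, and for the other 4 treated libraries date and cell type cannot be told apart.

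Identity genes of delta cells were far higher in the treated delta libraries. Sst (ENSMUSG00000004366, GRCm38 chr16:23889573-23890958) had 9561, 14003 and 14819 CPM in IFNγ-treated delta cells, against 20.9, 12.8 and 8.03 CPM in IFNγ-treated alpha cells. The groups were separated by nearly the whole measured range, with a log2 fold change of 9.84 ± 1.33 (standard error, SE; edgeR adjusted p = 2.48e-05). Hhex, the homeodomain repressor that maintains the delta cell state, had 339, 258 and 257 CPM in delta libraries and 0.431, 0.201 and 0.387 CPM in alpha libraries. Its log2 fold change was 9.63 ± 0.50, with an edgeR adjusted p of 1.94e-09. In bulk samples, fewer cells of a type and less RNA per cell cannot be told apart, so the few Sst reads of the alpha libraries do not say how many delta cells these held.

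Of the 13 genes of the delta identity list, 12 were tested and 9 were higher in IFNγ-treated delta cells, with no gene lower, beside 8.87% higher and 7.13% lower among all tested genes. The list's median log2 fold change was 4.87, or 4.31 with Crhr2 at its lower bound, and that of all tested genes -0.02. Ghsr, the receptor for the gut hormone ghrelin, had 138, 115 and 107 CPM in delta and 0.862, 0 and 0.290 CPM in alpha libraries (log2 fold change 8.17). Crhr2, a receptor for the beta cell peptide urocortin 3, had 6.40, 10.2 and 4.92 CPM in delta libraries and no count in the alpha libraries, which makes it at least 72.6-fold higher (against a floor of 3 counts over the group). The phosphatase gene Ptprz1 (8.68) and Neurog3, the endocrine progenitor factor (7.30), were higher in the same way. The 3 members that did not pass were the calcium-sensing receptor gene Casr (0.66, edgeR adjusted p = 0.058), the fatty acid receptor gene Ffar4 (0.49) and Bche. Lepr did not pass the low-count filter. The alpha counts of Ptprz1 lay in the first alpha library alone. Without that library Ghsr stood at 9.53, and Neurog3 lay between 6.69 and 7.91 over the libraries left out.

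Alpha cell genes showed the opposite pattern. Gcg (ENSMUSG00000000394, GRCm38 chr2:62474530-62483650), which encodes glucagon, had 43.0, 44.7 and 649 CPM in IFNγ-treated delta cells and 74633, 88997 and 111587 CPM in IFNγ-treated alpha cells. The third delta library held more Gcg than the other delta libraries, yet all lay far below the alpha libraries (log2 fold change -8.54 ± 1.48 SE, edgeR adjusted p = 0.000358). Ttr, the transthyretin gene, had 5.43, 4.59 and 28.4 CPM in delta and 1813, 3502 and 2387 CPM in alpha libraries, again without overlap (-7.62). Without the third delta library Gcg stood at -11.0 and Ttr at -9.0, and the delta counts of Pou3f4 lay in that library alone. Of the 14 genes of the alpha identity list, all tested, 10 were lower in IFNγ-treated delta cells (7.13% among all tested genes) and none was higher, with a median of -4.73. They included the homeobox genes Irx1 (-6.11), Irx2 (-3.93) and Pou3f4 (-6.42), Ttr and the arginine transporter gene Slc7a2 (-5.53). The 4 that did not pass were Smarca1, Dpp10, Etv1 and Peg3, and Peg3 was abundant in both cell types, with 5030, 3346 and 4710 CPM in delta and 4630, 2902 and 3485 CPM in alpha libraries.

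Of the 12 beta identity genes, 8 were lower in IFNγ-treated delta cells and 2 higher, beside 7.13% lower and 8.87% higher among all tested genes. Ins2 had 8.91, 10.3 and 33.4 CPM in delta libraries and 291, 1637 and 1577 CPM in alpha libraries (log2 fold change -6.04), so the alpha libraries held more insulin RNA than the delta libraries, and the first alpha library less of it than the other two. Ins1 (-5.39), the insulin gene activator Mafa (-5.46) and the granule zinc transporter gene Slc30a8 (-6.76) followed the same order. The Mafa call was lost with the date term (-1.16, edgeR adjusted p = 0.775) and in limma-voom, and with that term 6 genes of the list were lower. Without the third delta library Ins2 stood at -6.92 and Ins1 at -6.74, and Mafa lay between -6.27 and -4.68 over the libraries left out. For Ucn3, which encodes urocortin 3, the delta libraries held 1 count and the alpha libraries 109, a ratio of 93.0 after scaling (95% exact interval 16.4 to 3710, counting error only). Iapp, which encodes amylin, went the other way, with 3809, 2780 and 6450 CPM in delta and 391, 619.6 and 1772 CPM in alpha libraries (2.23, and 3.10 without the third alpha library). Pdx1, named here after its values were seen, had 50.7, 44.6 and 48.8 CPM in delta and 5.78, 7.52 and 13.3 CPM in alpha libraries (2.44). The genes of the pancreatic polypeptide family did not pass the test: Ppy had 784, 1200 and 1462 CPM in delta and 1241, 1953 and 1306 CPM in alpha libraries, with overlap between the groups (-0.38, edgeR adjusted p = 0.666). Pyy overlapped as well, at 1443, 2068 and 2328 CPM in delta and 718, 1953 and 819 CPM in alpha libraries.

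**Figure D1:**
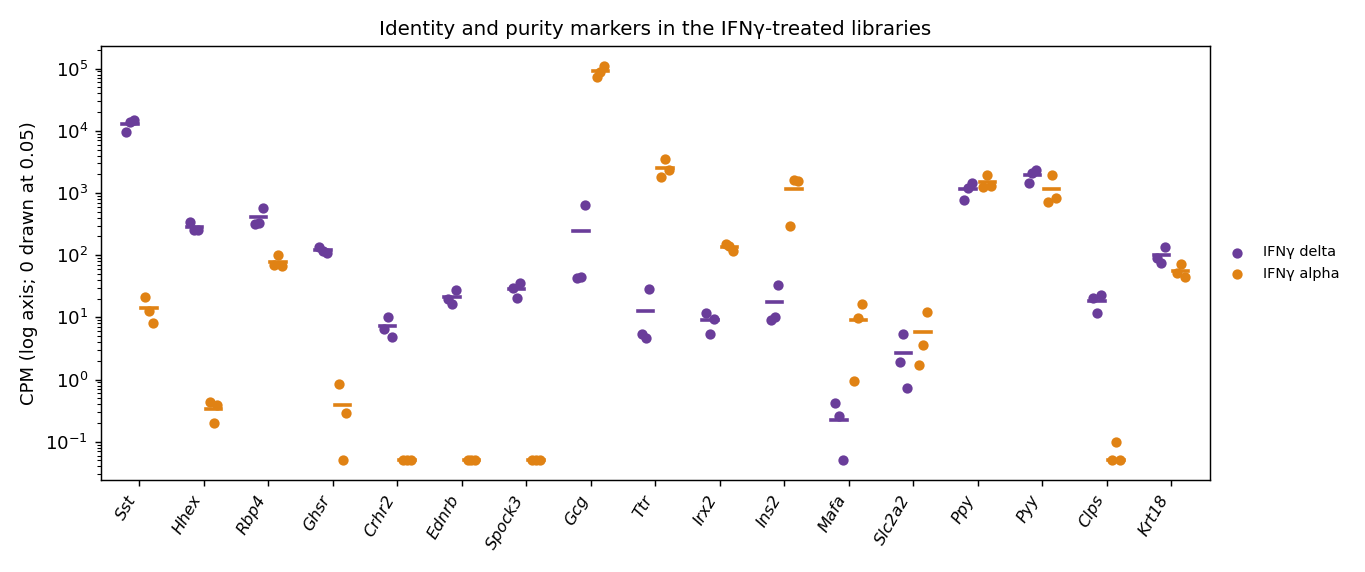
Levels in CPM (log axis, 0 drawn at 0.05) of 17 identity and purity genes in the 3 IFNγ-treated delta (purple) and 3 IFNγ-treated alpha libraries (orange), with 1 point per library and a bar at the mean. Sst lies between 9561 and 14819 CPM in delta and Gcg between 74633 and 111587 CPM in alpha libraries, while Ppy overlaps between the cell types and the acinar gene Clps was counted almost only in delta libraries.

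Digestive enzyme genes of pancreatic acinar cells moved with the delta label. Summed over the 30 listed acinar genes, the treated delta libraries held 2000, 766 and 3258 CPM and the treated alpha libraries 6.90, 30.4 and 12.6 CPM, and 23 of the 26 tested members were higher in delta cells (8.87% among all tested genes). The control delta libraries held 1989, 2230 and 6237 CPM of the same genes. Clps, which encodes colipase, had 521 counts in the delta libraries and 1 in the alpha libraries, a ratio of 610 (95% exact interval 109 to 24200). The duct list was divided, with 6 of 12 genes higher and 1 lower: the duct and progenitor factor Sox9 had 34.5, 25.1 and 17.1 CPM in delta and 0.259, 0.10 and 0 CPM in alpha libraries (7.52, and 8.64 without the first alpha library), whereas the osteopontin gene Spp1 had 78.6, 37.3 and 141 CPM in delta and 1259, 721 and 640.4 CPM in alpha libraries (-3.35). The part of acinar and duct RNA in the other differences was not tested. Immune cell markers were near 0 in both, where the summed 12 genes came to 2.37, 4.97 and 2.62 CPM in delta and 1.21, 2.11 and 1.74 CPM in alpha libraries, and 4 of them, with Cd3e, Tyrobp and Laptm5 among these, had no count in any of the 6. Of the endothelial list 1 of 4 tested genes was higher and of the mesenchymal and Schwann list 1 of 4 was lower, with sums between 7.95 and 13.8 CPM and between 19.8 and 27.3 CPM in delta libraries, against 2.51 to 4.91 CPM and 16.04 to 21.4 CPM in alpha libraries.

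Across all tested genes, 1538 were higher (8.87%) and 1237 lower (7.13%) in IFNγ-treated delta cells, and 2195 of them differed by a log2 fold change of at least 1. The 3 delta and 3 alpha libraries did not overlap for 4522 genes, 26.1% of those tested. Control delta against control alpha cells, which shares no library with the treated comparison, gave 1897 higher genes (10.9%) and 1520 lower genes (8.77%). Of the 1538 genes higher in treated delta cells, 1188 were higher in control delta cells too and none was lower. Of the 1237 lower genes, 905 were lower in control delta cells and none was higher.

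Among the largest differences outside the identity lists, Spock3, which encodes an extracellular proteoglycan, had 29.8, 20.5 and 35.7 CPM in delta libraries and no count in alpha libraries, at least 316-fold higher. Further genes of the 12 largest fitted changes had no count in any treated alpha library: the endothelin receptor gene Ednrb (at least 236-fold higher), Reg2 of the regenerating family (174), the myosin gene Myo7b (136), the nucleoside transporter gene Slc28a3 (133), the synaptotagmin gene Syt6 (97.2) and the orphan receptor gene Gpr153 (92.2), each fold a lower bound. The Reg2 call was lost in limma-voom (limma-voom adjusted p = 0.0645). Fermt1, an adhesion adaptor gene, had 531 counts in delta and 1 in alpha libraries, a ratio of 622 (95% exact interval 111 to 24600). The adhesion receptor gene Adgrf5 had 160.2, 151 and 149.6 CPM in delta and 0.259, 0.401 and 0.387 CPM in alpha libraries (8.74). In the other direction, Pdk4, the kinase that restrains pyruvate dehydrogenase, had 0.139, 0.255 and 0.901 CPM in delta and 140.1, 208 and 203 CPM in alpha libraries (-8.49, and -9.75 without the third delta library). The tubulin gene Tubb1 had no count in delta and 237 counts in alpha libraries, at least 67.4-fold lower in delta. Lama2, a laminin chain gene, had 1 count in delta and 471 in alpha libraries. The groups did not overlap for any of these genes.

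Genes of hormone storage and release were counted beside 8.87% higher and 7.13% lower among all tested genes. Of 17 granule and prohormone processing genes, 3 were higher in IFNγ-treated delta cells, 5 were lower and 9 did not pass, with a median of -0.27. Chgb, a granin, had 4074, 2565 and 5187 CPM in delta and 698, 869 and 996 CPM in alpha libraries (2.21). Vgf, another granule peptide precursor, had 6.68, 6.37 and 2.87 CPM in delta and 52.3, 91.0 and 39.0 CPM in alpha libraries (-3.54). Scg2 (1.16) and Iapp were also higher, and Scgn (-1.16), Cpe (-0.99), Pcsk2 (-0.97) and Chga (-0.86) were lower. Pcsk2 encodes the convertase that yields glucagon and Cpe a carboxypeptidase that trims the cleaved peptides. Of 19 exocytosis genes, 2 were higher and 2 lower, near the shares of all tested genes. The calcium sensor gene Syt1 had 81.6, 80.9 and 74.9 CPM in delta and 7.59, 4.91 and 8.99 CPM in alpha libraries (3.46). The priming factor gene Cadps had 3.76, 7.39 and 10.1 CPM in delta and 162, 191 and 197 CPM in alpha libraries (-4.67). Neither gene overlapped between the groups.

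Excitability, receptors and fuel use each held genes of both directions. The counts of these lists and of the transcription factors stand beside 8.87% higher and 7.13% lower among all tested genes. Of 21 channel genes, 5 were higher and 3 lower in treated delta cells, with a median of 0.02. Cacna1h, a T-type calcium channel gene, had 142, 166 and 87.4 CPM in delta and 2.85, 2.21 and 1.45 CPM in alpha libraries (5.91), and the potassium channel genes Kcnj3 (-3.55) and Kcnk3 (-2.48) were among the lower ones. The KATP channel genes Kcnj11 (0.02) and Abcc8 (0.46) did not pass. Of 26 receptor genes, 7 were higher and 8 lower. The somatostatin receptors were divided: Sstr1 had 17, 19.6 and 9.92 CPM in delta and 0.776, 0.802 and 0.193 CPM in alpha libraries (4.67), and Sstr2 had 0.557, 0.382 and 0.820 CPM in delta and 19.2, 20.2 and 15.1 CPM in alpha libraries (-4.87). The glucagon receptor gene Gcgr (3.13), the GLP-1 receptor gene Glp1r (1.60, edgeR adjusted p = 0.0389) and the muscarinic receptor gene Chrm4 (4.33) were higher, and the fatty acid receptor gene Ffar1 (-5.51), Gabbr2 (-6.01, with delta counts in the third library alone), the vasopressin receptor gene Avpr1b (-5.20, and -5.80 without the third delta library) and the adrenergic receptor gene Adrb1 (-5.31, and -6.09 without the second delta library) were lower. Of 18 genes of glucose use and metabolism, 3 were higher and 7 lower, with a median of -0.72, while with the date term 2 were higher and 2 lower, with a median of -0.14. They included Hadh (2.29) and Ldha (2.13), which were higher, and Hk1 (-3.21), Slc2a3 (-1.58) and Pcx (-1.56), which were lower. The Ldha call was lost without the third alpha library. Of 14 pan-endocrine transcription factor genes, 3 were higher (Glis3 1.30, Meis2 0.97, Rfx3 0.97) and 2 lower (Nkx2-2 -1.53, Neurod1 -1.18). Sstr1, Sstr2 and Gcgr were named after their values were seen.

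Stress genes were not the same in the sorted fractions. The summed immediate early and dissociation genes came to 1632, 1403 and 1502 CPM in treated delta and 689.8, 1012 and 317 CPM in treated alpha libraries without overlap, and 4 of 15 genes were higher (8.87% among all tested genes), Egr1 (1.92), Ier2 (2.71), Ier3 (1.25) and Btg2 (0.98). Of 18 unfolded protein response genes, 3 were higher, Chac1 (2.54), Herpud1 (1.41) and Atf4 (0.85). Their summed level was 5089, 3804 and 6663 CPM in delta and 3730, 3572 and 4828 CPM in alpha libraries, and within the delta libraries it had the order of the acinar genes. Its part in the interferon results was not tested, and none of the 8 tested proliferation genes passed. With the date term the calls of Egr1, Ier3, Btg2 and Atf4 were lost. In that fit 1 of the 15 immediate early and 3 of the 18 unfolded protein response genes were higher. Leaving out single libraries ended some of these calls: Egr1 and Ier3 without the first or the second delta or the third alpha library, Egr1 and Atf4 without the first alpha library, Atf4 without the second or the third delta library, and Btg2 without the first or the third delta or the third alpha library.

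The IFNγ receptor chains and Jak1 did not pass the test, and Jak2 was higher in treated delta cells. Ifngr1 had 11.7, 9.17 and 14.9 CPM in IFNγ-treated delta and 10.1, 8.22 and 9.86 CPM in IFNγ-treated alpha cells, with overlap (log2 fold change 0.35, edgeR adjusted p = 0.353). Ifngr2 overlapped too (-0.42, edgeR adjusted p = 0.503), as did Jak1 (-0.21, edgeR adjusted p = 0.5). Jak2 had no overlap, with 125, 97.7 and 118 CPM in delta and 81.7, 48.3 and 69.8 CPM in alpha libraries (0.77, edgeR adjusted p = 0.0171). Of the 23 receptor and JAK-STAT genes, 3 were higher, 1 was lower and 19 did not pass, beside 8.87% higher and 7.13% lower among all tested genes, with a median of -0.05. Ptpn1, a phosphatase that acts on the JAK kinases, was the lower one, at 36.9, 39.5 and 43.1 CPM in delta and 159, 192 and 100.1 CPM in alpha libraries (-1.92 ± 0.22 SE, edgeR adjusted p = 4.71e-06). Socs2, of the SOCS family of feedback inhibitors, was higher (1.14), and Socs1, the main feedback inhibitor of IFNγ signalling, did not pass (0.82, edgeR adjusted p = 0.303). Ptpn1 and Socs2 differed alike in control cells, by -1.78 and 1.13. The Jak2 call was lost without the first delta or the second alpha library, and with the date term 1 gene of the list was higher and 1 lower.

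Of 10 transcription factor genes of the interferon response, 3 were higher in treated delta cells (8.87% among all tested genes), none was lower, and the median was 0.49. Irf1 had 132, 236 and 172 CPM in treated delta and 135, 154 and 129 CPM in treated alpha libraries, overlapping (0.37, edgeR adjusted p = 0.274). Ciita had 8.63, 48.4 and 18.4 CPM in delta and 5.35, 5.11 and 6.96 CPM in alpha libraries, against 1.45 to 2.29 CPM in control delta and 0.726 to 1.87 CPM in control alpha libraries. All 3 treated delta libraries lay above the treated alpha libraries, over a wide range (2.11 ± 0.46 SE, edgeR adjusted p = 0.00286). Without the second delta library the log2 fold change of Ciita was 1.22 (edgeR adjusted p = 0.0465), and with the date term 0.69 (edgeR adjusted p = 0.46). Batf2, a leucine zipper factor induced by IFNγ, had 3.06, 9.05 and 3.20 CPM in delta and 0.431, 0.501 and 0.580 CPM in alpha libraries (3.30 ± 0.80 SE, edgeR adjusted p = 0.00764). Irf7 was the last of the 3 (1.12, edgeR adjusted p = 0.0313). Nlrc5, the transactivator of class I genes, did not pass (0.60, edgeR adjusted p = 0.275). Without the second delta library the calls of Irf7 and Batf2 were lost (2.60 for Batf2), and without the first or the third alpha library that of Irf7. With the date term none of the 10 passed.

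The class II presentation genes made the clearest group. Cd74, which encodes the invariant chain, had 184, 305 and 229 CPM in IFNγ-treated delta cells and 64.8, 50.4 and 22.1 CPM in IFNγ-treated alpha cells. It lay between 0.519 and 0.859 CPM in control delta and between 0.145 and 1.39 CPM in control alpha libraries. The treated groups did not overlap, with a log2 fold change of 2.39 ± 0.36 (SE; edgeR adjusted p = 8.69e-05). H2-Aa, the alpha chain of the I-A molecule, had 64.2, 102 and 85.3 CPM in delta and 19.3, 15.3 and 14.3 CPM in alpha libraries (2.36 ± 0.31 SE, edgeR adjusted p = 2.19e-05). H2-DMb1, a chain of the peptide editor of class II molecules, had 12.3, 17.7 and 16.2 CPM in delta and 0.690, 2.41 and 1.45 CPM in alpha libraries (3.35 ± 0.46 SE, edgeR adjusted p = 0.000112). The chain genes H2-Ab1 (1.99) and H2-Eb1 (1.68) were higher as well.

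In all, 5 of the 7 tested class II genes were higher in IFNγ-treated delta cells and none was lower, with a median of 1.99, beside 8.87% higher among all tested genes. H2-DMa (1.15, edgeR adjusted p = 0.0663) and the thiol reductase gene Ifi30 (-0.27) did not pass, and H2-DMb2, H2-Oa, H2-Ob and Ctss were below the filter. The 11 listed genes summed to 309, 521 and 397 CPM in treated delta and 104, 107 and 56.3 CPM in treated alpha libraries. In control cells they summed to 9.19 to 9.83 CPM in delta and 9.01 to 17.4 CPM in alpha libraries, and none of the 7 differed there. The 12 immune cell markers summed to 2.37, 4.97 and 2.62 CPM in treated delta and 1.21, 2.11 and 1.74 CPM in treated alpha libraries, without overlap and highest in the second delta library, like the class II genes. Ptprc, the gene of CD45, had 0.418, 0 and 0 CPM in treated delta libraries and no count in treated alpha libraries, and the part of immune cell RNA in the class II difference was not tested. With the date term 2 of the 7 passed, H2-Aa and H2-DMb1, with a median of 1.73, and the H2-Eb1 call was lost without the second delta library and without the first or the third alpha library.

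Class I presentation genes included the most abundant induced genes, and most did not pass the test. B2m, the light chain of class I molecules, had 2325, 1891 and 2426 CPM in IFNγ-treated delta and 2679, 992 and 1345 CPM in IFNγ-treated alpha cells, with the first alpha library the highest of all 6 (0.41 ± 0.35 SE, edgeR adjusted p = 0.515). It lay between 19.2 and 43.5 CPM in control delta and 24.8 and 26.2 CPM in control alpha libraries. H2-K1, a heavy chain gene, had 970.0, 1259 and 1006 CPM in delta and 630.4, 999 and 544 CPM in alpha libraries, also with overlap (0.57, edgeR adjusted p = 0.114). Within each same-numbered pair the delta library held more H2-K1. Of 24 class I genes, 2 were higher, H2-Q7 (1.20, edgeR adjusted p = 0.0105) and H2-T23 (1.07, edgeR adjusted p = 0.0181), none was lower and 22 did not pass, with a median of 0.41, beside 8.87% higher among all tested genes. With the date term none of the 24 passed. The peptide transporter gene Tap1 (0.67) and the immunoproteasome gene Psmb8 (0.60) were among those that did not pass. Without the second alpha library and with a correction for GC content, an alternative added after seeing the data, 9 of the 24 were higher, with a median of 0.58. The H2-Q7 and H2-T23 calls were lost without the second delta or the third alpha library, and that of H2-T23 also without the first alpha library.

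Interferon-inducible GTPases, with immunity-related GTPases and guanylate-binding proteins (Gbp genes) among them, attack the vacuoles of intracellular pathogens. They were induced in both cell types, 17 of the 19 tested in delta and 16 in alpha cells (against 1.21% and 0.94% of all tested genes). Between the treated cells, 2 were higher in delta, none was lower and 17 did not pass, with a median of 0.37, beside 8.87% higher among all tested genes. Gbp8 had 280.2, 491 and 334 CPM in delta and 156, 99.2 and 131 CPM in alpha libraries (1.51 ± 0.28 SE, edgeR adjusted p = 0.000731). Gbp4 had 953, 1333 and 936 CPM in delta and 623, 337 and 561 CPM in alpha libraries (1.08, edgeR adjusted p = 0.0288), a call lost without the second delta, the second alpha or the third alpha library. With the date term the calls of both Gbp8 and Gbp4 were lost. Iigp1 had 451, 845 and 893 CPM in delta and 372, 349.5 and 975 CPM in alpha libraries, overlapping (0.37, edgeR adjusted p = 0.646), and no count in the control libraries of either type. Gbp4, Gbp8 and Gbp9 overlap on the genome, and members of this family, like Ifit3 with Ifit3b, H2-Q6 with H2-Q7 and Tgtp1 with Tgtp2, are near-identical or overlapping, so their shares of reads are uncertain.

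**Figure D2:**
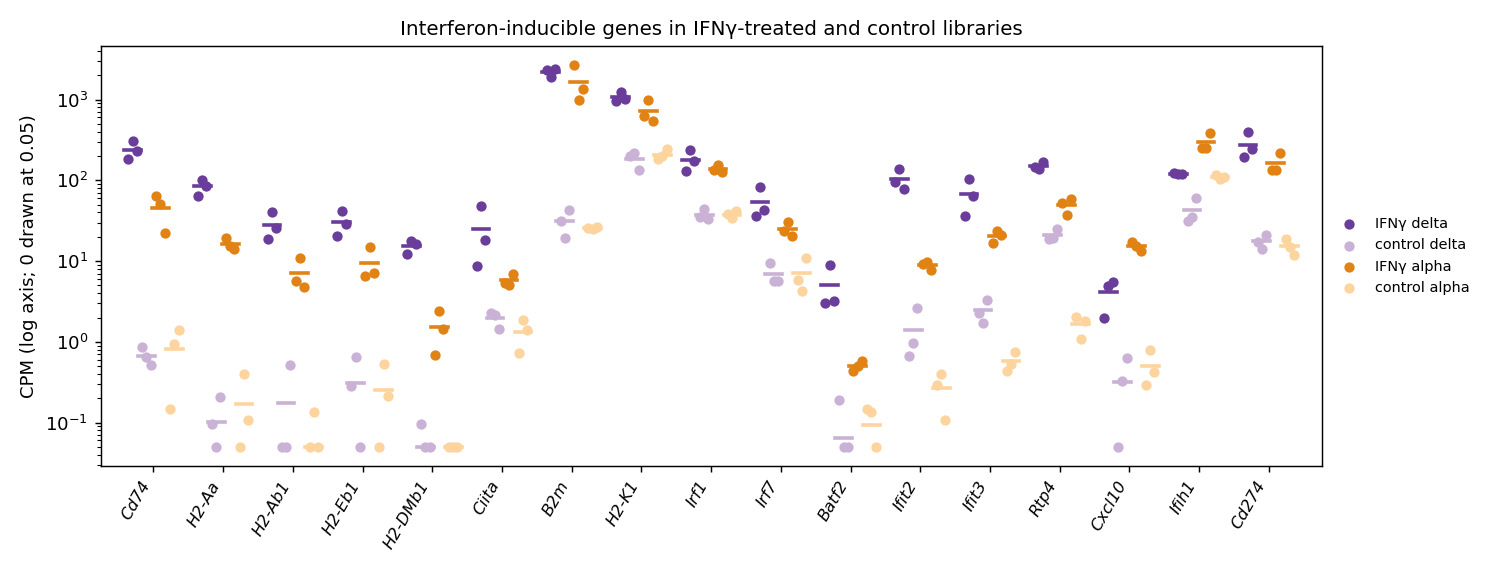
Levels in CPM (log axis, 0 drawn at 0.05) of 17 interferon-inducible genes in IFNγ-treated delta, control delta, IFNγ-treated alpha and control alpha libraries, with 1 point per library and a bar at the mean. The class II genes from Cd74 to H2-DMb1 lie higher in treated delta than in treated alpha libraries, B2m overlaps, and Cxcl10 and Ifih1 lie lower in treated delta libraries.

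Of 41 antiviral genes, 9 were higher in delta cells, 1 was lower and 31 did not pass, with a median of 0.66, beside 8.87% higher and 7.13% lower among all tested genes. Ifit2, an inhibitor of translation, had 94.5, 140.1 and 78.9 CPM in IFNγ-treated delta cells and 9.14, 9.73 and 7.74 CPM in IFNγ-treated alpha cells. In control cells it had 0.668 to 2.60 CPM in delta and 0.107 to 0.402 CPM in alpha libraries. It showed the largest difference of the list, with wide separation (3.56 ± 0.36 SE, edgeR adjusted p = 7.62e-07). Oas2, a sensor of double-stranded RNA, had 86.4, 125 and 39.3 CPM in delta and 24.2, 26.6 and 15.5 CPM in alpha libraries (1.91, edgeR adjusted p = 0.00104). Rtp4, a receptor transporter, had 145, 137 and 171 CPM in delta and 52.6, 37.1 and 59.0 CPM in alpha libraries (1.61 ± 0.22 SE, edgeR adjusted p = 2.66e-05), and it differed by 3.67 in control cells. Ifit3 (1.72), Ifit3b (2.27), Herc6 (1.30), Zbp1, Ddx58 and Xaf1 were the other higher genes. Ifih1, the cytosolic RNA sensor MDA5, was the lower one, with 125, 120.5 and 118 CPM in delta and 253, 254 and 386 CPM in alpha libraries (-1.30 ± 0.22 SE, edgeR adjusted p = 0.00031), and it was lower in control delta cells by a like amount (-1.38). With the date term 4 of the 41 were higher, with a median of 0.50.

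Secreted and surface molecules differed one by one. Cxcl10, the chemokine that draws CXCR3-bearing T cells, had 1.95, 4.97 and 5.49 CPM in IFNγ-treated delta and 17.3, 15.2 and 13.3 CPM in IFNγ-treated alpha cells, lower in delta without overlap (-1.86 ± 0.47 SE, edgeR adjusted p = 0.00907). In this list of chemokines, cytokines and adhesion molecules, 2 of 9 genes were higher (8.87% among all tested genes), Il1rn and Vcam1, both below 10 CPM in every treated library. Cd274, which encodes PD-L1, had 195, 392 and 242 CPM in delta and 134, 135 and 220.1 CPM in alpha libraries, with overlap (0.76 ± 0.27 SE, edgeR adjusted p = 0.0593). Within each same-numbered pair the delta library held more Cd274, and with the replicate block it did not pass either (edgeR adjusted p = 0.0783). Of 12 checkpoint and regulatory genes 3 were higher (8.87% among all tested genes): Il18bp, the decoy receptor of interleukin 18, with 256, 336 and 353 CPM in delta and 149.7, 131 and 162 CPM in alpha libraries (1.09 ± 0.21 SE, edgeR adjusted p = 0.00112), Lgals9 (2.00, edgeR adjusted p = 0.049) and Pvr (1.40). The Lgals9 call was lost without any 1 of the 6 treated libraries, and that of Pvr without the first or the third delta or the first or the second alpha library. Pvr was not called with replicate numbers as a block (edgeR adjusted p = 0.0571). With the date term the calls of Il18bp and Pvr were lost, and that of Lgals9 was kept.

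Complement genes gave 1 higher of 10, near the 8.87% of all tested genes. It was C4b (2.16, edgeR adjusted p = 0.0371, and 0.0536 with the replicate block), whose call was lost without any 1 of the 6 treated libraries other than the second alpha library. With the date term no complement gene was higher and 1 was lower. That fit compares the cell types through the first alpha library, which held the most C3 and Cfb of the treated libraries, as given further on. Serping1, the C1 inhibitor gene, was abundant in both cell types, with 1095, 1339 and 1266 CPM in delta and 932, 1050 and 786 CPM in alpha libraries (0.42, edgeR adjusted p = 0.306). Of 22 cell death genes, 2 were higher and 3 lower, beside 8.87% and 7.13% of all tested genes, and with the date term none was higher and 3 were lower. Tnfsf10, which encodes the death ligand TRAIL, had 194, 255 and 244 CPM in delta and 115, 63.0 and 109.9 CPM in alpha libraries (1.27 ± 0.24 SE, edgeR adjusted p = 0.000878). It differed more in control cells (3.04). Fas, the death receptor gene, had 0.278, 0.764 and 1.48 CPM in delta and 12.7, 3.51 and 5.22 CPM in alpha libraries, lower in delta without overlap (-3.0, edgeR adjusted p = 0.00294, with -3.73 without the third delta and -2.30 without the first alpha library). Bcl2l1 (-1.26) and Bcl2l11 (-0.98), a survival and a death gene of the BCL2 family, were lower too.

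**Figure D3:**
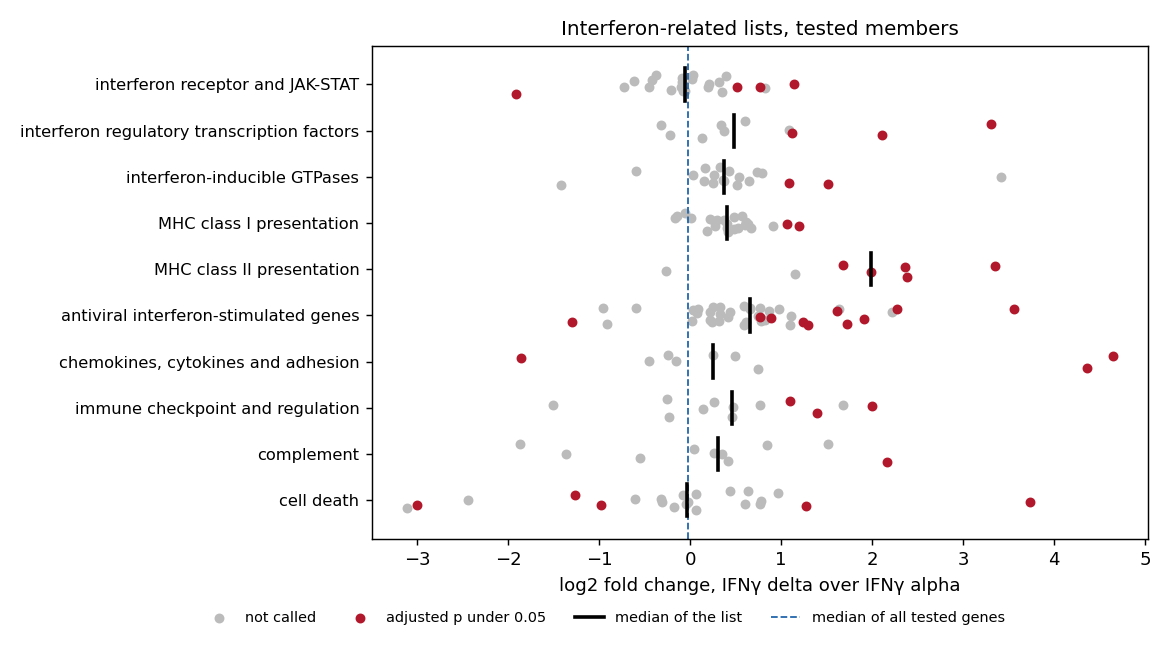
Log2 fold changes, IFNγ-treated delta over IFNγ-treated alpha cells, of the tested members of 10 interferon-related lists, with 1 point per gene (red where the edgeR adjusted p was under 0.05), a bar at the list's median and a dashed line at the median of all tested genes. The class II list has the highest median of the 10, 1.99, and the JAK-STAT list lies at -0.05.

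To describe induced genes without using the compared cells to choose them, 172 genes were taken that were higher in IFNγ-treated than in control beta cells (183 genes, 1.06% of all tested) by a log2 fold change of at least 1. Between the treated cell types, 40 of the 172 were higher in delta cells (8.87% among all tested genes), 3 were lower (7.13%) and 129 did not pass. The median log2 fold change was 0.58, against -0.02 over all tested genes, with 152 genes above 0 and 20 below. In control cells 21 of them were higher and 14 lower, with a median of 0.03. The delta and alpha libraries did not overlap for 74 of the 172, and the background is 26.1%. The 3 lower genes were Cxcl10, Ifih1 and the GTPase gene Gbp2b, which had no count in delta and 42 counts in alpha libraries, at least 11.9-fold lower. The count rested on the second delta library, without which 25 genes were higher with a median of 0.43. With a correction for GC content 69 were higher, and with the date term 10, with a median of 0.39. Those 10 were Ifit2, H2-DMb1, Ifit3b, Lgals9, Gm2237, Oas2, H2-Aa, Rtp4, Ddx60 and Cmpk2. Taken over the alpha and delta cells themselves, a list of 327 induced genes (from 491 higher on average, 2.83% of all tested, at the same minimum of 1) gave 86 higher and 13 lower. In control cells 68 of the 327 were higher and 23 lower, with a median of 0.298. The treated libraries compared here entered the choice of this list, so its counts are not independent of that choice.

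Summed over the 172 genes, the treated delta libraries held 22969, 30907 and 26337 CPM and the treated alpha libraries 19623, 17449 and 19153 CPM, without overlap. As a share of TPM, which is scaled by gene length and sums to the same total in every library, the genes took 0.628%, 0.998% and 0.563% in delta and 0.545%, 0.717% and 0.464% in alpha libraries, and here the groups overlapped. Within each same-numbered pair the delta share was the higher one. B2m led in both, with 1470 ± 215 TPM in delta and 1176 ± 494 TPM in alpha cells (SD, n = 3 each), followed by H2-K1 at 620.2 ± 271 TPM in delta and 499 ± 332 TPM in alpha cells. Serping1 came next, at 393 ± 134 TPM in delta and 330.1 ± 138 TPM in alpha cells. Across the 3 delta libraries the range of B2m lay above that of H2-K1, and the ranges of H2-K1 and Serping1 overlapped, although H2-K1 was above Serping1 within each of the 6 treated libraries. Of the 12 genes highest in TPM, 11 were the same in both cell types. Single genes differed in rank: Cd74 was 17th of the 172 in delta (109.9 ± 47.6 TPM) and 45th in alpha cells (23.3 ± 11.1 TPM), Rtp4 was 24th in delta and 48th in alpha cells, and H2-Aa was 36th in delta and 91st in alpha cells. The genes above 100 TPM numbered 11, 22 and 12 in delta and 9, 16 and 11 in alpha libraries.

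**Figure D4:**
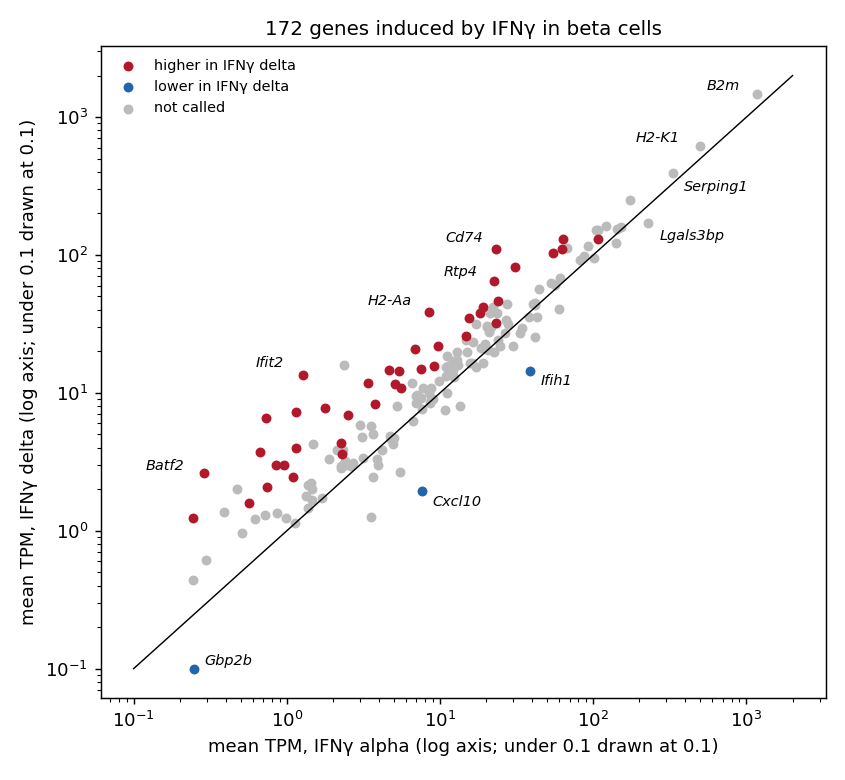
Mean TPM of the 172 genes induced by IFNγ in beta cells, in IFNγ-treated delta cells (vertical, log axis) against IFNγ-treated alpha cells (horizontal, log axis), n = 3 libraries each, with a line of equal levels and values under 0.1 drawn at 0.1. B2m, H2-K1 and Serping1 are the highest in both cell types, the 40 genes higher in delta cells lie above the line, and Cxcl10, Ifih1 and Gbp2b lie below it.

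Motif matches were counted in the 250 bases before each start, on both strands, with 32851 RefSeq promoters as background. The core of GAAA, 2 bases of any kind and GAAA was found in 26.2% of the 149 promoters matched to 122 of the induced genes, in 20.0% of the 30 promoters of 24 induced genes higher in delta cells, in 26.7% of the 116 promoters of 95 induced genes that did not pass, and in 2.98% of all promoters. TTCNNNGAA was found in 13.4%, 3.33% and 16.4% of the same sets and in 7.02% of all promoters. The letters CTGATTGG were found in 13.3% of the promoters of induced genes higher in delta cells, in 6.03% of those that did not pass and in 3.83% of all, and in 3 of the 10 promoters of 9 class II genes. Overlap between matches of different motifs was not removed, and a match is a run of letters in a window. TGACGTCA was found in 3.33% of the promoters of induced genes higher in delta cells, 0.862% of those that did not pass and 1.55% of all.

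Whether the 2 cell types responded unequally to IFNγ is another question than whether they differed after treatment, and it was tested as an interaction, the response of delta minus that of alpha cells. No gene of 17338 passed in edgeR (smallest adjusted p = 0.202). At an unadjusted edgeR p under 0.05 there were 783 genes, not more than that threshold would give if no gene differed. DESeq2 called 1 higher and 5 lower, and limma-voom 1 higher and none lower. The responses therefore stand side by side. Cd74 rose by 8.43 in delta and 5.70 in alpha cells (log2 fold change, IFNγ over control), H2-Aa by 9.49 in delta and 6.48 in alpha cells, and H2-DMb1 by 8.32 in delta and 6.73 in alpha cells. The rises of H2-Aa and H2-DMb1 were fitted from very few control counts, so their sizes are uncertain. This holds most for H2-DMb1 in alpha cells, whose treated mean was only 1.52 CPM. Ciita passed in delta cells (3.66) and not in alpha cells (2.10), and the difference between these responses did not pass. B2m rose by 6.14 in delta and 6.03 in alpha cells, Cd274 by 3.98 in delta and 3.43 in alpha cells, and Cxcl10 by 3.70 in delta and 4.88 in alpha cells. Rtp4 rose by 2.84 in delta and 4.90 in alpha cells, the difference with the smallest adjusted p of those named here (0.202), and its control level was 19, 19.2 and 25 CPM in delta and 2.03, 1.07 and 1.82 CPM in alpha cells. Sst, Gcg and Hhex did not pass for a response in either cell type.

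**Figure D5:**
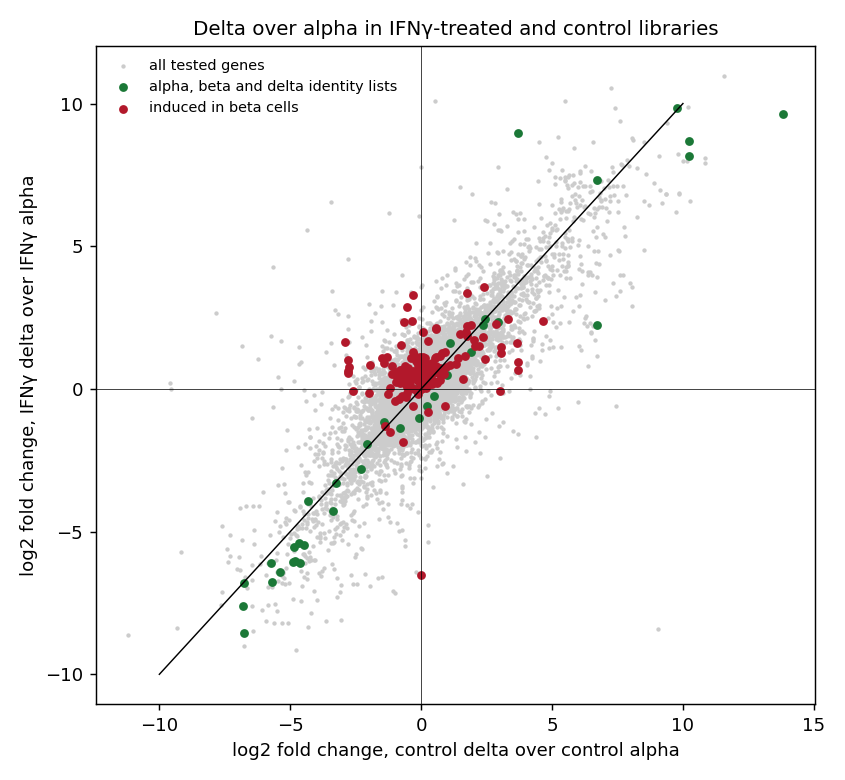
Log2 fold changes of delta over alpha cells in IFNγ-treated libraries (vertical) against the same in control libraries (horizontal) for all 17338 tested genes (grey), the identity lists (green) and the 172 genes induced in beta cells (red), with a line of equality; the axes share no library. Identity genes lie along the line, and the induced genes have a median of 0.58 on the vertical and 0.03 on the horizontal axis.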

How the data were processed

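The authors prepared rRNA-depleted, random-primed Ovation SoLo libraries, sequenced them in pairs on a NextSeq instrument, aligned reads with STAR 2.5.2b to GRCm38 and deposited RSEM expected counts and TPM per gene and library. TPM is scaled by gene length. The RSEM version and the use of strand or molecular identifiers in counting are not given in the sources used here, so intervals and floors cover counting error only. Deposited FPKM values were not used.

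Expected counts were rounded. edgeR 4.0.16 (R 4.3.3) fitted all 18 libraries with 1 mean per group, after filterByExpr (minimum count 10) and TMM scaling. P-values came from its quasi-likelihood test (two-sided), adjusted by the Benjamini-Hochberg method across 17338 genes, with 0.05 as the threshold. The fitting code was tested on simulated data. A pairing by replicate number was inferred and fitted as a block in an alternative. Deviations from the group mean of same-numbered delta and alpha libraries correlated at 0.458, 0.466 and 0.441 over 5000 genes, and those of other pairs at -0.489 to -0.0063. Such deviations cancel within a group, so the same-numbered and the other correlations are not independent. The block over all libraries is given where it changed a call. Overlap between groups was judged without this pairing. A floor of 3 counts over a group bounds folds against 0, and a group with 1 to 3 counts gets a ratio with a 95% exact Clopper-Pearson interval.

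Genes named were a fixed set of hormone and interferon pathway genes, the 12 largest changes in each direction (group mean of at least 5 CPM, no overlap between libraries, no gene-model name), up to 6 called members of each of 29 lists, the 8 largest changes in each direction and the 12 highest TPM levels among induced genes. Other list members were named after their values were seen, to describe a list. The members and lists were chosen with earlier results of these data known. Symbols and coordinates came from GENCODE M21 on GRCm38, and promoters from RefSeq. Alternatives covered scaling, filtering, DESeq2 1.42.0, limma 3.58.1, the libraries entered, replicate block, date, GC content and leaving out libraries. Some genes of these lists stay in the counts and medians but are not reported here by name.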

Additional observations from a re-analysis of the deposited data

How the results depend on the processing

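Between IFNγ-treated delta and alpha cells, 679 genes were lower when only the treated delta and alpha libraries entered the fit, 865 were higher and 689 lower with date as a term, and 1000 were higher and 777 lower at an adjusted p of 0.01. With the replicate block 1564 were higher and 1237 lower. Leaving out 1 library gave 1249 to 1573 higher and 982 to 1378 lower genes. The difference of responses gave 57 higher and 49 lower genes without the low-count filter, 1 and 5 in DESeq2, 1 and 0 in limma-voom, 2 and 17 with date as a term, and 0 to 1 and 0 to 2 when 1 library was left out, with 1 and 2 without the second IFNγ-treated alpha library and 1 and 1 without it and with GC offsets, an alternative added after seeing the data. Of 172 induced genes, between 10 (date term) and 69 (GC offsets) were higher in delta cells. For these changes the cause was not tested. Of 121 named genes that passed, 78 passed under every alternative, 43 did not under at least 1 (35 of them with the date term, 17 only there), and none reversed. Fitted over all 18 libraries, the replicate block changed no other call among the 121 than those of C4b and Pvr. The block was also fitted on the treated delta and alpha libraries alone, an alternative added after seeing the data. There 1400 genes were higher and 928 lower, and further calls were lost, that of Ier3 among them. Of 26 named genes that did not pass, 8 passed under at least 1 alternative: Cd274, Gbp6, H2-D1, H2-K1, Ly6e, Parp14, Psmb8 and Tap1. With 3 libraries a group, date is confounded with cell type in all but 1 pair of libraries, and low genes such as H2-DMb2 were below the filter.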

Other observations

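The first IFNγ-treated alpha library alone was high for a set of inflammatory genes, picked here after their values were seen. Icam1, an adhesion molecule gene, had 13.6, 8.79 and 9.42 CPM in IFNγ-treated delta and 36.0, 0.902 and 0.677 CPM in IFNγ-treated alpha libraries. The complement gene C3 had 9.46, 7.13 and 6.31 CPM in delta and 21.4, 0.301 and 0.290 CPM in alpha libraries, and Cfb had 8.91, 7.52 and 4.42 CPM in delta and 27.1, 1.81 and 1.35 CPM in alpha libraries. The chemokine gene Ccl2 had no count in the delta libraries and 6.90, 0.201 and 0.0967 CPM in the alpha libraries. Nos2, the inducible nitric oxide synthase gene, had 1.11, 0.127 and 0 CPM in delta and 9.23, 0.401 and 0.290 CPM in alpha libraries. The protease inhibitor gene Serpina3f had 6.26, 5.73 and 4.75 CPM in delta and 34.9, 4.91 and 7.54 CPM in alpha libraries. For each of these genes the first alpha library was the highest of the 6, so a mean over the 3 alpha libraries describes none of them, and for Icam1, C3, Cfb, Nos2 and Serpina3f the delta and alpha libraries overlapped. In the control alpha libraries Icam1 had 1.89, 1.61 and 2.89 CPM and C3 had 0.726, 1.20 and 0.534 CPM.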
